A study of Mus musculus with 6 samples.

Results

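LINE-1 (L1) elements are the most abundant self-copying retrotransposons of the mouse genome, and 663 of the 6943 CHH regions that the authors list as differing between their 2 groups of embryos touch one (9.55%). CHH is a cytosine followed by 2 bases that are not G. A region was taken where its context was CHH and a repeat entry named L1 or Lx, the name of an older group of rodent L1 elements. Regions that also carried an entry for the repeats IMPB_01 or RLTR31D_MM, or for an exon or untranslated region, and those on chromosomes X and Y were left out, which removed 77, 11 and 24 of 775 regions in turn. All contexts together, the list holds 9707 regions. Of the 663 regions, 1 lies on a genome patch and the others on the 19 autosomes (build mm10).

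The groups were 3 embryos given sperm small RNAs of stress-induced depressed males (depressed-sRNA embryos, replicates 1, 3 and 4) and 3 given those of normal males (normal-sRNA embryos, replicates 1, 2 and 4). All were zygotes of C57BL/6 background, injected at 2 ng/µl, grown in culture at 37 °C and taken about 108 h later, at embryonic day 4.5. Each embryo was sequenced on its own after bisulfite treatment, which turns unmethylated cytosines into a base read as thymine and leaves methylated ones as they are. An unmethylated cytosine that escapes conversion is therefore read as methylated, and no conversion rate stands in the sources used here. The deposited table gives the authors' mean of each group per region, with no value per embryo and no read depth, so a level has no spread here and whether a difference exceeds the variation between embryos could not be tested.

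An intact L1 carries an internal promoter at its 5′ end, ORF1 for an RNA-binding protein, ORF2 for an endonuclease and reverse transcriptase, and a 3′ tail. Most genomic copies are truncated at the 5′ end, since reverse transcription starts at the 3′ end and often stops early. CG methylation of the promoter holds L1 in check in most tissues, and it is reduced in the blastocyst, when the genome as a whole carries little methylation. CHH methylation is scarce in most mammalian cells, is laid down by the de novo enzymes DNMT3A and DNMT3B, and is well known from neurons and oocytes.

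In L1 elements, listed CHH regions were mostly higher in depressed-sRNA embryos, by a few percentage points and at low levels. Of the 663 regions, 607 were higher and 56 were lower in depressed-sRNA embryos, a share of 91.6% higher (exact 95% binomial interval over regions 89.2 to 93.6%). Over all CHH regions of the list 79.6% were higher and 20.4% lower, and over the 4651 that meet the same conditions on exons, chromosomes and the 2 excluded repeats 90.8% were higher and 9.18% lower. The L1 share thus lay close to the share of other CHH regions outside exons. The rule did not use the direction, but each region had been listed for its difference, so the shares describe the list. Of the 78 L1 regions with a difference of at least 10 percentage points, 50.0% were higher, so the majority lay among the smaller differences. The share at this cut was not counted for other CHH regions. In the 4651, lower regions also differed by more, with a median of -11.4 percentage points against 3.67 in higher ones.

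The 607 higher regions had a median level of 4.45% in depressed-sRNA embryos and of 0.674% in normal-sRNA embryos. Their levels ran between 2.30 and 36.7% in depressed-sRNA embryos and between 0.143 and 15.4% in normal-sRNA embryos. The median difference was 3.61 percentage points (exact 95% interval over regions 3.44 to 3.81), and the median ratio of the 2 levels was 6.36. In 441 of these regions (72.7%) the difference was under 5 percentage points, and the smallest was 2.02, next to the smallest of the whole list at 2.00. A level of 10% or more in either group was reached in 55 of them (9.06%). Among all higher CHH regions meeting the same conditions, 68.6% differed by under 5 percentage points and 11.8% reached 10% in either group. All CHH regions meeting the same conditions had, where higher, a median difference of 3.67 percentage points, so the size of the L1 difference was that of the list.

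**Figure D1:**
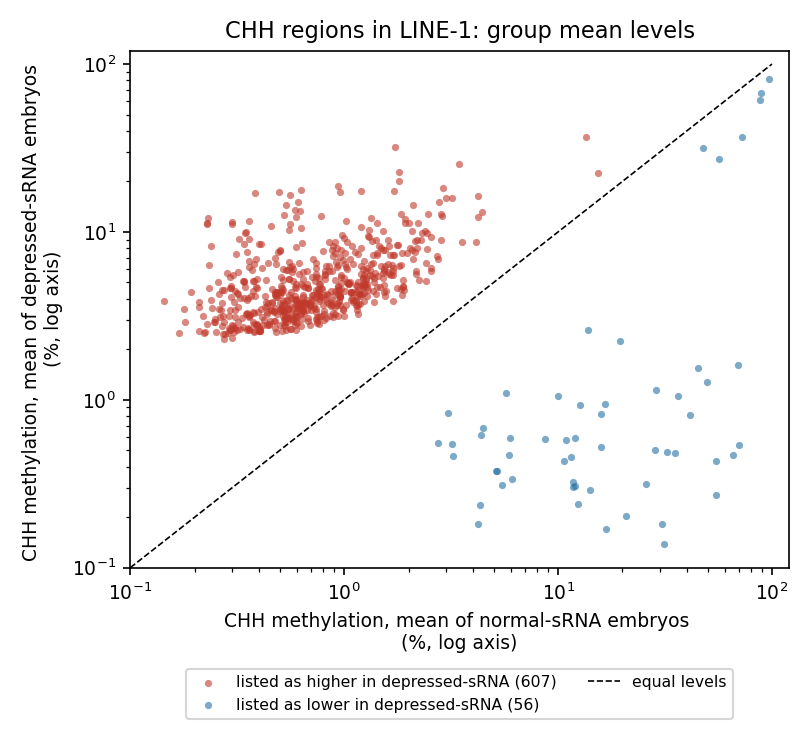
CHH methylation of each of the 663 L1 regions, as the authors' mean over depressed-sRNA embryos (vertical, percent, log axis) against that over normal-sRNA embryos (horizontal, percent, log axis), with a dashed line of equal levels. The 607 higher regions form 1 compact cloud around 4.45% against 0.674%, while the 56 lower regions are spread between 2.73 and 97.2% in normal-sRNA embryos.

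The 56 lower regions differed by more. Their median level was 0.541% in depressed-sRNA embryos and 15.0% in normal-sRNA embryos, with a median difference of -14.4 percentage points (exact 95% interval over regions -20.5 to -11.2). The size went with few counted cytosines: the median was -8.89 percentage points in lower regions with at least 50 cytosines and -5.39 in those with at least 30 per 100 bp, where higher regions had 3.59. A level of 10% or more in either group was reached in 39 of them (69.6%), against 64.4% of all lower CHH regions meeting the same conditions. Lower CHH regions meeting the same conditions had a median difference of -11.4 percentage points.

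**Figure D2:**
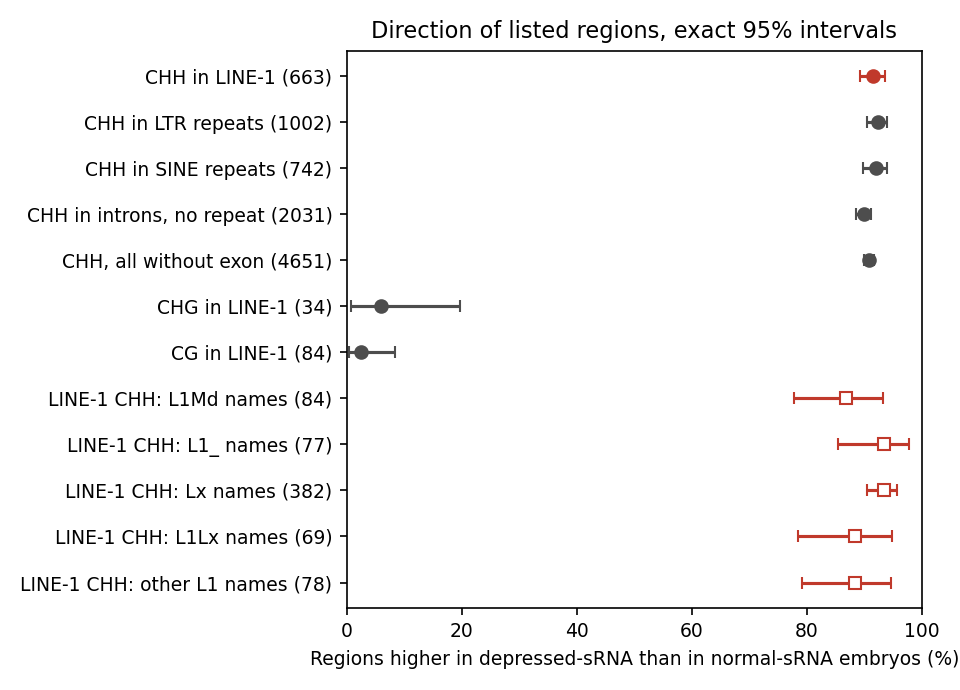
Share of listed regions that were higher in depressed-sRNA embryos (horizontal, percent), with exact 95% binomial intervals over regions and the number of regions in brackets. The L1 CHH regions sit at 91.6%, beside CHH regions of LTR and SINE repeats, and far from the CHG and CG regions of L1 at 5.88 and 2.38%.

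Other repeats gave similar values in the CHH context. CHH regions in LTR retroviral repeats without an L1 entry were higher in depressed-sRNA embryos in 925 of 1002 cases (92.3%), with a median difference of 3.98 percentage points in those. In SINE repeats without an L1 or LTR entry, 683 of 742 were higher (92.0%), with a median difference of 3.38 percentage points. In introns without any repeat 1827 of 2031 regions were higher. The intervals of these shares overlap that of L1, and the differences between them were not tested.

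Within L1 elements the other 2 contexts pointed the other way. Under the same conditions 84 CG regions touched an L1, and 82 of them were lower and 2 higher in depressed-sRNA embryos. CG regions of the whole list were lower in 98.5% and higher in 1.48% of cases. The 82 lower ones had a median of 5.57% in depressed-sRNA embryos and 68.0% in normal-sRNA embryos, over a median of 5 CpGs. The 34 CHG regions in L1 comprised 32 that were lower and 2 that were higher, where the whole list of CHG regions has 91% lower and 8.97% higher. Medians of the 32 lower ones were 0.0949% in depressed-sRNA embryos and 32.9% in normal-sRNA embryos. Of the 607 higher CHH regions, 0 shared a base with a CG or CHG region of the list. Of the 4224 higher CHH regions meeting the same conditions 1 overlapped a CG and 0 a CHG region, so such overlaps were nearly absent there too. Over all 5528 higher CHH regions of the list, 1 overlapped a CG and 7 a CHG region.

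The direction of an L1 CHH region went with how densely the table counts cytosines in it. Higher regions had a median of 46.1 CHH cytosines per 100 bp and lower ones 23.7, at median lengths of 203 and 206 bp. With at least 30 cytosines per 100 bp, 570 of 593 regions were higher (96.1%); with fewer, 37 of 70 were (52.9%). Over all CHH regions meeting the same conditions the shares were 94.2% of 4373 and 38.1% of 278. The sparse lower regions carried the large differences, with medians of 0.503% in depressed-sRNA embryos and 25.8% in normal-sRNA embryos over 33 regions, whereas the 23 dense lower ones had medians of 0.576% in depressed-sRNA embryos and 5.86% in normal-sRNA embryos. The 37 sparse higher regions were long, with a median of 1108 bp, and stood at a median of 6.19% in depressed-sRNA embryos and 0.928% in normal-sRNA embryos. The authors' region statistic is taken, from its name, to add up over the cytosines of a region. The part that density plays in the listing of a region was not tested. The split at 30 was chosen after the values had been seen.

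**Figure D3:**
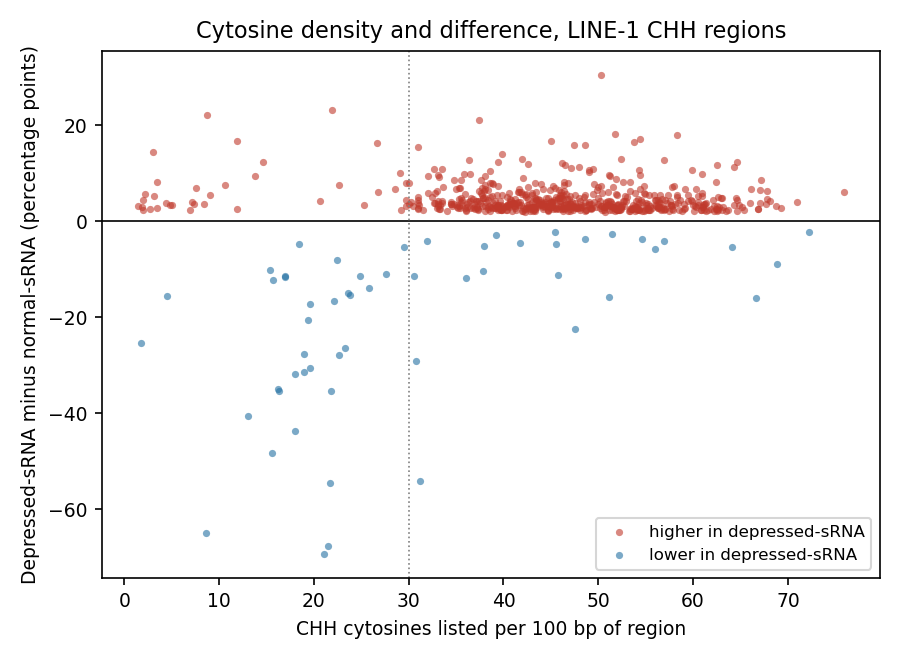
Difference between the groups (vertical, depressed minus normal, percentage points) against the number of CHH cytosines the table lists per 100 bp (horizontal) for each L1 region, with a dotted line at 30. Higher regions crowd at 30 to 65 cytosines per 100 bp with differences of a few points, and most regions that were lower by over 20 points lie left of the line.

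The elements themselves were mainly old. The 663 regions carry 777 L1 entries under 86 names, and 568 regions have a single one. Lx names, a group of rodent elements that has long ceased to move, were on 382 regions (57.6%), of which 357 were higher and 25 lower in depressed-sRNA embryos (93.5% higher, exact 95% interval 90.5 to 95.7%). The L1Md names, which cover the mouse lineage and include the families that still move, were on 84 regions, with 73 higher and 11 lower (86.9%, 77.8 to 93.3%). Names of the form L1_Mur and L1_Rod, of other rodent elements, were on 77 regions, with 72 higher (93.5%, 85.5 to 97.9%). L1Lx names were on 69 regions with 61 higher (88.4%), and the remaining L1 names, most of them ancient families shared by mammals, on 78 with 69 higher (88.5%). In all 5 classes most regions were higher, the intervals overlapped, and the median difference of the higher regions lay between 3.46 percentage points for L1_ names and 3.73 for L1Md and L1Lx names. Differences between the classes were not tested. A region with names of several classes, as 26 have, counts in each.

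Among single names Lx7 was the most frequent, with 37 higher and 5 lower regions and a median of 5.78% in depressed-sRNA embryos and 0.937% in normal-sRNA embryos in the higher ones. Lx5c had 40 higher and 1 lower, at medians of 4.51% in depressed-sRNA embryos and 0.768% in normal-sRNA embryos. Lx5 followed with 37 higher and 2 lower, Lx8 with 33 higher and 3 lower, and L1_Mur2 with 34 higher and 1 lower. All 19 regions of Lx4A were higher. How often each name occurs in the genome was not counted here.

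The families that include some elements still able to move, L1MdA, L1MdTf and L1MdGf, contributed 22 regions, 18 higher and 4 lower in depressed-sRNA embryos. Over all L1 regions 91.6% were higher. A family name does not show that each of its numbered subgroups, or a given copy, can move. The subgroups were not sorted by activity here. The L1MdA names were L1MdA_II, L1MdA_III, L1MdA_IV, L1MdA_VI and L1MdA_VII, and the L1MdGf name was L1MdGf_II. L1MdA_VI was the most frequent L1MdA name, with 7 regions. The 3 L1MdGf regions were all higher, at 3.46, 3.78 and 4.29% in depressed-sRNA embryos, against 0.508, 0.936 and 0.261% in normal-sRNA embryos. Of the 3 L1MdTf regions, 1 on chromosome 8 (76411673 to 76411861, L1MdTf_II) was at 8.99% in depressed-sRNA embryos and 2.29% in normal-sRNA embryos, and 1 on chromosome 7 (12532890 to 12533249, L1MdTf_III) at 7.33% in depressed-sRNA embryos and 1.37% in normal-sRNA embryos. The other L1MdTf_III region, on chromosome 8 (67039040 to 67039254), went the opposite way, with 1.05% in depressed-sRNA embryos and 36.4% in normal-sRNA embryos. The 16 L1MdA regions split into 13 higher and 3 lower. Of the other groups, L1MdFanc and L1MdV each had 20 higher and 2 lower regions.

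The L1 entries touched were mostly short stretches far along the consensus. Each entry gives the stretch of the L1 consensus that the genomic copy matches. The median stretch was 401 bp, 652 of the 777 were under 1000 bp (83.9%), and 8 covered 5000 bp or more. The stretch ended beyond position 5000 of the consensus in 634 entries (81.6%), and it began before position 1000, where the promoter lies in an intact element, in 33 (4.25%). L1_ names stood apart with a median start at 3017 and 30.7% ending beyond 5000, and Lx names had a median start at 6517 and 93.8% ending there. Median starts were at 6125 for higher and 5625 for lower regions, with median stretches of 390 bp for higher and 497 bp for lower ones. Of the 8 regions touching copies of 5000 bp or more, 4 were higher and 4 lower. An entry shows that a region touches the copy, not which part of it. Ends reached position 7696 for Lx and 6948 for L1Lx names, so position 5000 is not equally far from the 3′ end in all. More than 1 L1 entry was listed for 95 regions, and a stretch need not be a whole copy. Genome-wide numbers of L1 copies by position were not analysed here, so no excess of the 3′ end is stated.

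**Figure D4:**
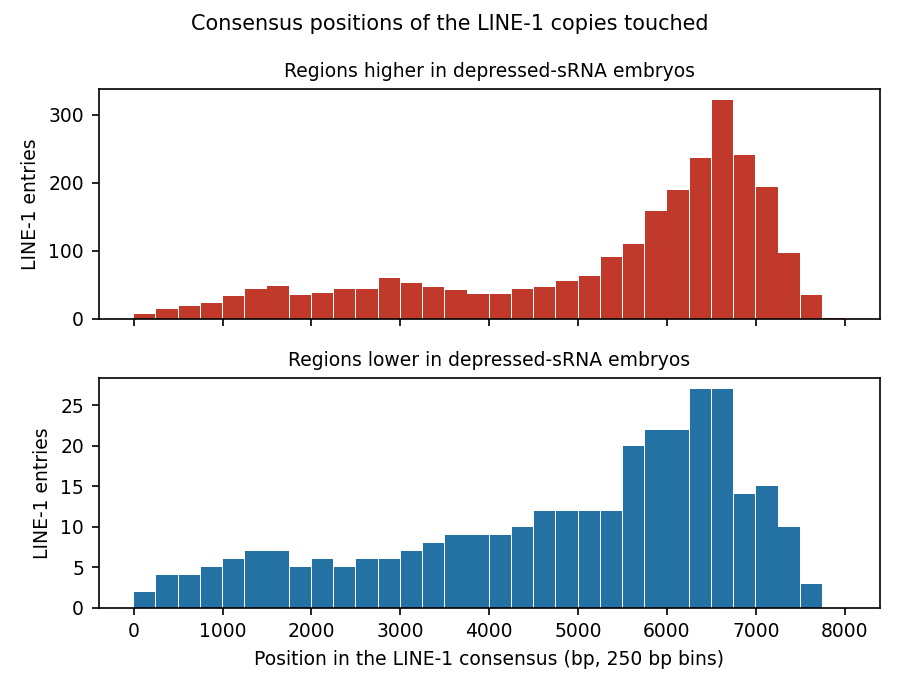
Number of L1 entries (vertical) whose matched stretch covers each 250 bp bin of the consensus (horizontal, bp), for regions higher (top) and lower (bottom) in depressed-sRNA embryos. Both rise toward high positions, to 322 entries for higher and 27 for lower regions in the bin from 6500 to 6750. Names whose consensus positions end at different points share the axis.

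The L1 regions were scattered singly over the genome. The median gap between neighbours was 2.07 Mb, and 4 gaps were under 10 kb, all between pairs of higher regions. The closest pair, 252 bp apart on chromosome 4, touched L1_Mur2 copies. Its regions were at 3.04 and 8.48% in depressed-sRNA embryos, against 0.635 and 0.409% in normal-sRNA embryos. A pair in Mipol1, 3360 bp apart on chromosome 12, was at 3.62 and 7.72% in depressed-sRNA embryos, against 0.436 and 0.800% in normal-sRNA embryos. On all 19 autosomes more regions were higher than lower. Chromosome 1 had the most with 67 higher and 1 lower, and chromosome 7 had 37 higher and 0 lower. Over all CHH regions the shares of higher regions on these chromosomes were 83.4 and 82.6%. The lowest shares were on chromosome 11 with 16 higher and 6 lower (72.7%) and on chromosome 17 with 16 higher and 5 lower (76.2%). Over all CHH regions the shares there were 67.0 and 77.2%. That wider set also holds exonic regions and the 2 excluded repeats, and was 79.6% higher as a whole. L1 regions made up between 5.95% of the CHH regions on chromosome 11 and 15.3% on chromosome 3. On chromosome X, outside the count, 24 of 24 such regions were higher. The share over all CHH regions of that chromosome was not counted, and the sample labels used here give no sex.

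**Figure D5:**
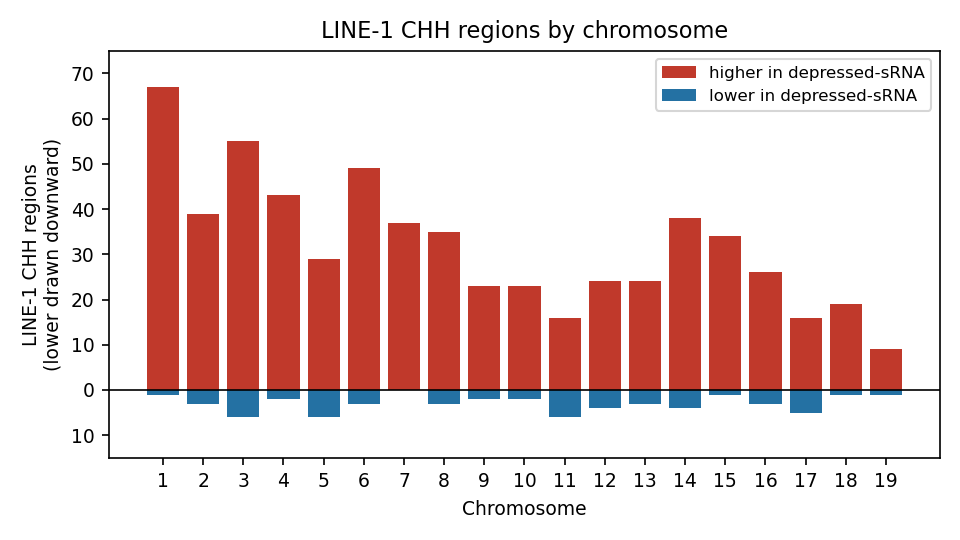
Number of L1 CHH regions on each autosome, with those higher in depressed-sRNA embryos drawn upward and those lower drawn downward. Higher regions are in the majority on all 19 autosomes, with 67 on chromosome 1 as the highest bar and 9 on chromosome 19 as the lowest.

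The strongest higher regions were long and held many cytosines, over which the region statistic is, from its name, taken to be summed. Among the L1 regions, the largest region statistic given by the authors, 3171, belonged to a region of 1075 bp with 554 cytosines on chromosome 2 (47277663 to 47278737). This region touches an Lx copy matching positions 1693 to 5974 of the consensus. Its level was 3.80% in depressed-sRNA embryos and 1.10% in normal-sRNA embryos. Next came a region annotated to the promoter of the olfactory receptor gene Olfr723 (chromosome 14, 49933766 to 49934637, L1_Mur3), at 5.46% in depressed-sRNA embryos and 1.35% in normal-sRNA embryos. An L1M4 copy on chromosome 7 (47156391 to 47157066) followed with 4.37% in depressed-sRNA embryos and 1.07% in normal-sRNA embryos. An Lx8b copy on chromosome 3 (87353621 to 87354048) was at 8.40% in depressed-sRNA embryos and 1.76% in normal-sRNA embryos, and the strongest L1Md region, an L1MdFanc_I copy on chromosome 2 (111791725 to 111792199), at 4.38% in depressed-sRNA embryos and 1.10% in normal-sRNA embryos. All 5 had at least 45 cytosines per 100 bp, where the median of all higher L1 regions was 46.1. Their levels in depressed-sRNA embryos stayed under 10%, as in most higher L1 regions, of which 9.06% reached 10% in either group.

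A few higher regions reached much higher levels. The largest difference lay in an intron of Ctnna3, which encodes alpha-T-catenin, a cell adhesion protein (chromosome 10, 64956118 to 64956282, Lx7), with 32.2% in depressed-sRNA embryos and 1.73% in normal-sRNA embryos. An L1MdV_II copy on chromosome 17 (37165130 to 37165489) was at 36.7% in depressed-sRNA embryos and 13.5% in normal-sRNA embryos. Regions on chromosome 3 (52441412 to 52442519, Lx7) and chromosome 15 (42746802 to 42746948, L1_Mur3) were at 25.5 and 22.8% in depressed-sRNA embryos, against 3.42 and 1.80% in normal-sRNA embryos. An intron of Atp10d, which RefSeq lists as a transcribed pseudogene in this build, was at 20.03% in depressed-sRNA embryos and 1.80% in normal-sRNA embryos (chromosome 5, 72217381 to 72217525, Lx5c). In the strongest L1Lx region, in an intron of the thyroid hormone receptor gene Thrb, the levels were 5.06% in depressed-sRNA embryos and 1.15% in normal-sRNA embryos. The longest region, 4864 bp on chromosome 16 over L1Lx_III and L1MdA_IV copies, had 151 counted cytosines and stood at 6.19% in depressed-sRNA embryos and 0.928% in normal-sRNA embryos.

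Among the lower L1 regions, the strongest statistic given by the authors was that of an L1_Mur2 copy on chromosome 12 (64652421 to 64652627). The level there was 0.613% in depressed-sRNA embryos and 4.37% in normal-sRNA embryos. An intron of Gucy1a2, a subunit gene of the nitric oxide receptor guanylate cyclase (chromosome 9, 3591232 to 3591762, L1MdFanc_II), was at 0.379% in depressed-sRNA embryos and 5.13% in normal-sRNA embryos. An Lx3A copy on chromosome 5 (83164953 to 83165109) combined a strong statistic with a large difference, at 0.430% in depressed-sRNA embryos and 54.5% in normal-sRNA embryos. Another Lx3A copy on chromosome 16 (64630309 to 64630474) had 0.339% in depressed-sRNA embryos and 6.09% in normal-sRNA embryos. In Itpr1, the gene of an intracellular calcium release channel, the level at an L1Lx_IV copy was 0.585% in depressed-sRNA embryos and 8.73% in normal-sRNA embryos.

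Several of the largest differences lay where a CHG region of the list overlapped. Of the 56 lower L1 regions, 12 shared a base with a CHG region, and all 12 CHG regions were lower too; over all lower CHH regions meeting the same conditions the share was 15.9%, against 21.4% here. These 12 had a median of 0.475% in depressed-sRNA embryos and 38.3% in normal-sRNA embryos, while the other 44 had 0.563% in depressed-sRNA embryos and 11.8% in normal-sRNA embryos. An Lx7 copy in an intron of Mecom, a zinc finger transcription factor gene (chromosome 3, 30492901 to 30493030), was at 1.61% in depressed-sRNA embryos and 69.2% in normal-sRNA embryos for CHH, and at 0.0815% in depressed-sRNA embryos and 67.5% in normal-sRNA embryos for CHG. An Lx7 copy on chromosome 2 (111955742 to 111956054) had 0.468% in depressed-sRNA embryos and 65.4% in normal-sRNA embryos, and an intron of Rsrc1 0.270% in depressed-sRNA embryos and 54.7% in normal-sRNA embryos, both for CHH. In these 3 regions CHH and CHG levels of a group lay within 3 percentage points of each other.

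The other overlaps inside genes were in introns as well. Magi2, a synaptic scaffold gene, had a CHH level of 0.812% in depressed-sRNA embryos and 41.3% in normal-sRNA embryos. Mapk10, the neuronal JNK kinase gene, had 0.943% in depressed-sRNA embryos and 16.6% in normal-sRNA embryos. Xkr4, Frmd4b and Zfp369 had 0.139, 0.204 and 0.169% in depressed-sRNA embryos, against 31.4, 20.8 and 16.7% in normal-sRNA embryos. A further 2 lay outside listed genes, at 0.482 and 1.28% in depressed-sRNA embryos, against 35.3 and 49.6% in normal-sRNA embryos. Another lay in Fgf14.

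In a small number of regions both groups had high CHH levels, which unconverted cytosines would also give. Levels of 10% or more in both groups were found in 6 of the 56 lower and 2 of the 607 higher regions. Among all CHH regions meeting the same conditions, 94 of 427 lower and 56 of 4224 higher ones had such levels. This selection was made after the values had been seen. An Lx copy on chromosome 16 (63312580 to 63312669) was at 81.5% in depressed-sRNA embryos and 97.2% in normal-sRNA embryos, the highest levels of all L1 regions. An Lx5c copy in an intron of Cdh12, a cadherin gene, was at 66.8% in depressed-sRNA embryos and 89.2% in normal-sRNA embryos, and an L1_Mur3 copy on chromosome 14 (102917574 to 102917852) at 61.3% in depressed-sRNA embryos and 87.7% in normal-sRNA embryos. An L1MdMus_II copy on chromosome 3 stood at 36.9% in depressed-sRNA embryos and 72.2% in normal-sRNA embryos, an Lx5b copy on chromosome 11 at 31.4% in depressed-sRNA embryos and 47.4% in normal-sRNA embryos, and Lx9 copies at Setd4 at 27.2% in depressed-sRNA embryos and 56.3% in normal-sRNA embryos. The 2 higher ones were the L1MdV_II copy on chromosome 17 and a region of 3099 bp on chromosome 8 (59345349 to 59348447, Lx8), at 22.4% in depressed-sRNA embryos and 15.4% in normal-sRNA embryos.

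Most of the L1 regions lay outside genes. No gene entry was listed for 434 of the 663 (65.5%), and 217 had an intron entry (32.7%), against 38.3% of all CHH regions with a repeat that meet the same conditions. Of the intronic L1 regions 186 were higher and 31 lower in depressed-sRNA embryos (85.7% higher), and of the 446 without an intron 421 were higher (94.4%). The same shares over all CHH regions meeting the conditions were 89.1% of 2982 with an intron and 93.9% of 1669 without one. The regions were listed with 182 named genes. The 173 protein-coding hosts with a RefSeq span within 10 kb of the region had a median length of 213 kb. The median of the 20661 autosomal protein-coding genes was 17.5 kb. Long genes hold more intronic sequence, but whether this accounts for the length was not tested. Hosts of other intronic CHH regions were not compared.

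Of the 182 genes, 172 had a single L1 region and 4 had 3. Ptprd, a receptor tyrosine phosphatase that organises synapses, had 3 regions, at 2.87, 5.88 and 2.98% in depressed-sRNA embryos, against 0.750, 0.877 and 0.803% in normal-sRNA embryos. Lrp1b, a large receptor of the LDL receptor family, also had 3, at 7.26, 9.03 and 3.47% in depressed-sRNA embryos, against 1.63, 0.359 and 0.546% in normal-sRNA embryos. Pde4d, a cyclic AMP phosphodiesterase gene, had 3, at 5.16, 4.04 and 4.85% in depressed-sRNA embryos, against 2.25, 0.339 and 1.54% in normal-sRNA embryos, though just 1 of them lay within 10 kb of its RefSeq span. In these 3 genes every L1 region was higher in depressed-sRNA embryos.

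Fgf14, which encodes an intracellular regulator of neuronal sodium channels, was mixed. An L1MCa copy in it was at 4.13% in depressed-sRNA embryos and 1.19% in normal-sRNA embryos. An L1Lx_III copy (chromosome 14, 124522394 to 124522801) was at 0.241% in depressed-sRNA embryos and 12.4% in normal-sRNA embryos, and a CHG region overlapping it at 0.0293% in depressed-sRNA embryos and 14.3% in normal-sRNA embryos. The third Fgf14 region, the longest of the lower ones with 2651 bp and 48 cytosines, was at 0.314% in depressed-sRNA embryos and 25.8% in normal-sRNA embryos. Fgfr2 also met the rule with 2 higher regions, but 0 of them lay within 10 kb of its RefSeq span.

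Promoter entries were found for 21 of the 663 L1 regions, 19 higher and 2 lower in depressed-sRNA embryos, and 10 of these named a gene. Over all L1 regions 91.6% were higher. The share of promoter entries among other CHH regions was not counted here. Beside Olfr723, promoter regions were at 8.40% in depressed-sRNA embryos and 1.79% in normal-sRNA embryos at Mettl21e, at 8.04% in depressed-sRNA embryos and 2.03% in normal-sRNA embryos at Efcab2, and at 11.2% in depressed-sRNA embryos and 1.93% in normal-sRNA embryos at Skint7. At Ntrk3, the neurotrophin receptor gene TrkC, the level was 4.12% in depressed-sRNA embryos and 0.642% in normal-sRNA embryos, and at the pigmentation gene Oca2 3.81% in depressed-sRNA embryos and 0.460% in normal-sRNA embryos. The 2 lower ones were those of Setd4 and of the zinc finger gene Zscan25, with 0.324% in depressed-sRNA embryos and 11.7% in normal-sRNA embryos.

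Of 38 genes known to restrain L1 or to write and erase its methylation, 0 carried an L1 CHH region by the rule, and 5 carried another CHH region (13.2%). Of the 20661 autosomal protein-coding genes of RefSeq, 0.852% were listed with an L1 CHH region by the rule and 14.0% with any CHH region, so both counts lay near the background. The CHH region of Tet2, a gene of 5-methylcytosine oxidation, was at 4.88% in depressed-sRNA embryos and 0.739% in normal-sRNA embryos, that of the chromatin remodeller gene Hells at 6.07% in depressed-sRNA embryos and 0.832% in normal-sRNA embryos, and that of Morc3 at 10.9% in depressed-sRNA embryos and 0.374% in normal-sRNA embryos. Mov10l1, an RNA helicase gene of the piRNA pathway, had 1.02% in depressed-sRNA embryos and 5.60% in normal-sRNA embryos. Tet3, the oxidase of the zygote, had 1.34% in depressed-sRNA embryos and 22.1% in normal-sRNA embryos in a region that touches an Lx8b copy but also its 3′ untranslated region. The 3 higher and 2 lower genes are too few to set against the list.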

How the data were processed

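Bisulfite libraries of 6 single embryos were processed by the authors with Trim Galore 0.3.3, Bismark and SAMtools on mm10, per the submitters' processing notes. Which caller found the regions, with which thresholds and coverage filter, and how embryos were pooled is not given in these sources. The 1 deposited table holds, per the file headers, each group's mean methylation level, a fraction (multiplied to percent here), their difference, a signed region statistic (a score summed along the region), the length in bp and the count of cytosines. Depth is unknown, and intervals cover the number of regions alone.

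The 18732 entries were collapsed to distinct regions by chromosome, start, end and context with Python 3.11.15 and pandas 2.3.3. Shares have exact binomial and medians exact order-statistic intervals at 95% (SciPy 1.17.1), tested on simulated data. No test between groups was possible. L1Lx names, foreseen under the remaining L1 names, are given apart. Host gene distances used RefSeq for GRCm38.p6 (mm10); of 182 gene names 178 matched.

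Named regions were, per direction, the 5 with the strongest statistic, the 5 with the largest difference, the longest and the strongest of each class, and the 6 genes with the most regions; promoter, CHG-overlapping, both-methylated, L1MdTf and L1MdGf regions, close pairs and single L1 names were added after their values were seen. The members and lists were chosen with earlier results of these data known. A small number of regions that this rule names are not reported here.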

Additional observations from a re-analysis of the deposited data

How the results depend on the processing

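No paired analysis was possible because the table holds no values per embryo; for the same reason no embryo could be left out. Of 60 values under other settings, 48 stayed within the interval of the value as reported, 12 moved outside it and 0 changed direction. The count of direction changes bears on the shares of higher regions alone. The medians were taken within each direction and the intron share has no direction, so neither could change. The share of higher regions was 50.0% of 78 regions with a difference of at least 10 percentage points, which takes away the majority. Other CHH regions were not put to this cut. With a statistic at least 2 times the smallest the share was 95.9%, and with at least 50 cytosines 94.8%. The share was 94.2% in regions with no gene entry and 96.1% with at least 30 cytosines per 100 bp. The median difference of higher regions moved to 12.8 percentage points with the minimum difference, a shift by construction, and to 3.82 with the stricter statistic. That of lower regions moved to -22.4 with the minimum difference, to -8.89 with at least 50 cytosines and to -5.39 with at least 30 per 100 bp. The intron share moved to 47.4% with the minimum difference and to 27.0% with named genes within 10 kb, which drops unnamed genes by construction. For the other moves the cause was not tested. The settings on density, CHG overlap, the patch, gene distance and L1Lx names were chosen after seeing the data.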
